A study of Mus musculus with 18 samples.

Results

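The genes described here take iron into the cell, store it, recycle it from heme, export it or sense it. They were chosen by name as 10 genes of iron handling (Tfrc, Steap3, Slc11a2, Slc11a1, Fth1, Ftl1, Slc40a1, Hmox1, Ireb2 and Aco1) out of 23329 genes counted in every library. All 10 had reads in the files and all 10 passed the filter on low counts that left 11942 genes for testing. Slc40a1 passed that filter on the reads of libraries in which it was high, so its p-values are not taken as support. Its calls are still included in the counts of the 10 genes below.

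Their RNA was measured in FDH cells, immortalised cells grown from the livers of E14.5 BALB/c mouse embryos on a bc-/- bIL-3-/- background, which lacks both beta chains of the IL-3 receptor, at passages 10 to 12. Both lines had been given bc back by transduction. The P248L line also received the IL3Ra chain with the P248L change, and the WT line the unchanged IL3Ra chain. Each line was sampled untreated, in medium with mouse SCF (100 ng/ml) and doxycycline, and after 2 and 5 days in IL-3 at 100 ng/ml. The IL-3 medium as described lists neither SCF nor doxycycline, so a change over days goes with the loss of both as well as with IL-3.

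There were 3 libraries in each of the 6 groups: P248L untreated, P248L day 2, P248L day 5, WT untreated, WT day 2 and WT day 5. The labels name 1 line per receptor, so a difference between P248L and WT cannot be told apart from a difference between 2 cell lines. They do not say whether the libraries of a group came from separate cultures, so p-values measure only the spread between libraries, which may be technical. Gene counts do not tell a P248L receptor from a WT one.

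Cells take up iron bound to transferrin through the transferrin receptor, reduce it in the endosome and move it into the cytosol, where what is not used is stored in ferritin. Macrophages also recover iron from the heme of old red cells and return it to the blood through ferroportin, the only known iron exporter of mammals. When iron is scarce, the iron regulatory proteins IRP1 and IRP2 bind hairpins called iron-responsive elements. Binding in a 5′ UTR blocks translation, as for ferritin and ferroportin, and binding in the 3′ UTR of transferrin receptor mRNA protects the message from decay. RNA counts therefore show the amount of each message and not how well it is translated.

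These hairpins were looked for in the GENCODE M21 transcripts of the members on GRCm38, since they carry the known link between iron and these messages. The search, on the transcribed strand alone, was for a C, any 5 bases, the loop CAGTGN and 5 more bases that pair with those before the loop, G-U pairs allowed. Of 21840 coding genes, 0.1282% had a match in a 5′ UTR and 0.5815% in a 3′ UTR. Among the 10 genes, 4 had one: Tfrc in the 3′ UTR with 4 hairpins, and Fth1, Ftl1 and Slc40a1 in the 5′ UTR with 1 each. With 4 of 5 pairs required, 4.712% of genes matched in either UTR and Slc11a2 was added. The first and last Tfrc hairpins and those of the other genes are shown, with the 6-base loop CAGTGN in capitals, read 5′ to 3′ on the strand of the gene.
Tfrc 3′ UTR, chr16:32631219-32631247, plus strand: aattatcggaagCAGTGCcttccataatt
Tfrc 3′ UTR, chr16:32631710-32631738, plus strand: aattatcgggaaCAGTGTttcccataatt
Fth1 5′ UTR, chr19:9982732-9982760, plus strand: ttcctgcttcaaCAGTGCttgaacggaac
Ftl1 5′ UTR, chr7:45459779-45459807, minus strand: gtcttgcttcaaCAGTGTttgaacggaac
Slc40a1 5′ UTR, chr1:45925465-45925493, minus strand: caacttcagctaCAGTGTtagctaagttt
Slc11a2 3′ UTR, 4 of 5 pairs, chr15:100395153-100395181, minus strand: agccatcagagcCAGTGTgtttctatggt

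The libraries held between 13.8 and 27.2 times 1000000 reads assigned to genes. In bulk RNA, more cells of a type and more RNA per cell cannot be told apart. The P248L untreated and day 2 libraries differed among themselves along transcript length. Relative to the group mean, transcripts under 1500 bases stood above those over 4500 bases by 0.71, -0.13 and -0.58 on the log2 scale in P248L untreated libraries 1, 2 and 3. In P248L day 2 libraries these differences were 0.33, -0.07 and -0.26, and in the other 12 libraries they lay between -0.17 and 0.32. P248L untreated library 1 and day 2 library 3 were the farthest from their groups across all genes. Calls of the 10 genes that were lost or gained without this outlying pair are given beside the gene. On the length scale above, the pair's removal leaves P248L untreated libraries at -0.13 and -0.58 and day 2 libraries at 0.33 and -0.07. It thus shifts P248L day 2 against untreated toward short transcripts. The part of this shift in the calls lost or gained was not tested. Leaving the pair out removes no WT library. In comparisons of WT groups it can therefore act only through the filter, scaling and spread estimated over all libraries. Markers of erythroid cells, the main iron users of the fetal liver, were nearly absent: the 11 in the files summed to between 0.677 and 12.2 reads per 1000000 in any library, and Hba-a1 and Hba-a2, the alpha globin genes, had 0 reads in all 18. Within these low levels the erythropoietin receptor gene Epor was at 1.26 ± 0.154 CPM in P248L and 6.12 ± 0.715 CPM in WT day 5 cells (SD, n = 3), and the erythroid and mast cell factor gene Gata1 at 0.288 ± 0.196 CPM in P248L and 2.76 ± 0.665 CPM in WT day 5 cells.

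Levels are given as CPM, the reads of a gene per 1000000 reads in genes after scaling by TMM factors, and a change is called at an adjusted p under 0.05 in edgeR's quasi-likelihood F test, with Benjamini-Hochberg adjustment over all 11942 genes. Comparisons of day 2 and day 5 with untreated cells share the untreated libraries of that line.

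At day 5 the storage genes, the phagosomal and export transporters and heme oxygenase were far above untreated cells in both lines, and the transferrin receptor was below them. For the export transporter Slc40a1 in P248L cells this was a rise from 0 reads to a low 1.44 to 1.71 CPM, below every WT day 2 library. In the P248L line 6 of the 10 genes rose and 3 fell at day 5, where 71.1% of all tested genes changed. In the WT line 6 rose and 1 fell, where 73.1% of all tested genes changed. These shares are near the counts of the 10 genes, so the counts alone do not mark them. The median log2 fold change of the 10 genes at day 5 was 1.67 in P248L cells and 2.17 in WT cells, and that of all tested genes was -0.02 in P248L cells and -0.05 in WT cells. Slc40a1 had no reads in P248L untreated cells, and setting it at its lower bound left the P248L median at 1.67. Without Slc40a1 the median of the other 9 genes was 0.76 in P248L cells and 0.56 in WT cells. The median of the 10 genes lies midway between Aco1 and the next higher gene. These were at 0.76 and 2.57 (Fth1) in P248L cells and at 0.56 and 3.77 (Ftl1) in WT cells. Leaving out any single gene above Aco1 gives the same medians as leaving out Slc40a1. The size of the median and the order of the lines thus rest on this gap. A log2 fold change above 5 or below -5 was met by Slc11a1, Slc40a1 and Fth1 in WT cells, against 6.71% of all tested genes. In P248L cells only Slc40a1 met it, with a fitted value of 7.96 that starts from no untreated reads. The share of all tested genes beyond this limit was not taken in P248L cells.

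**Figure D1:**
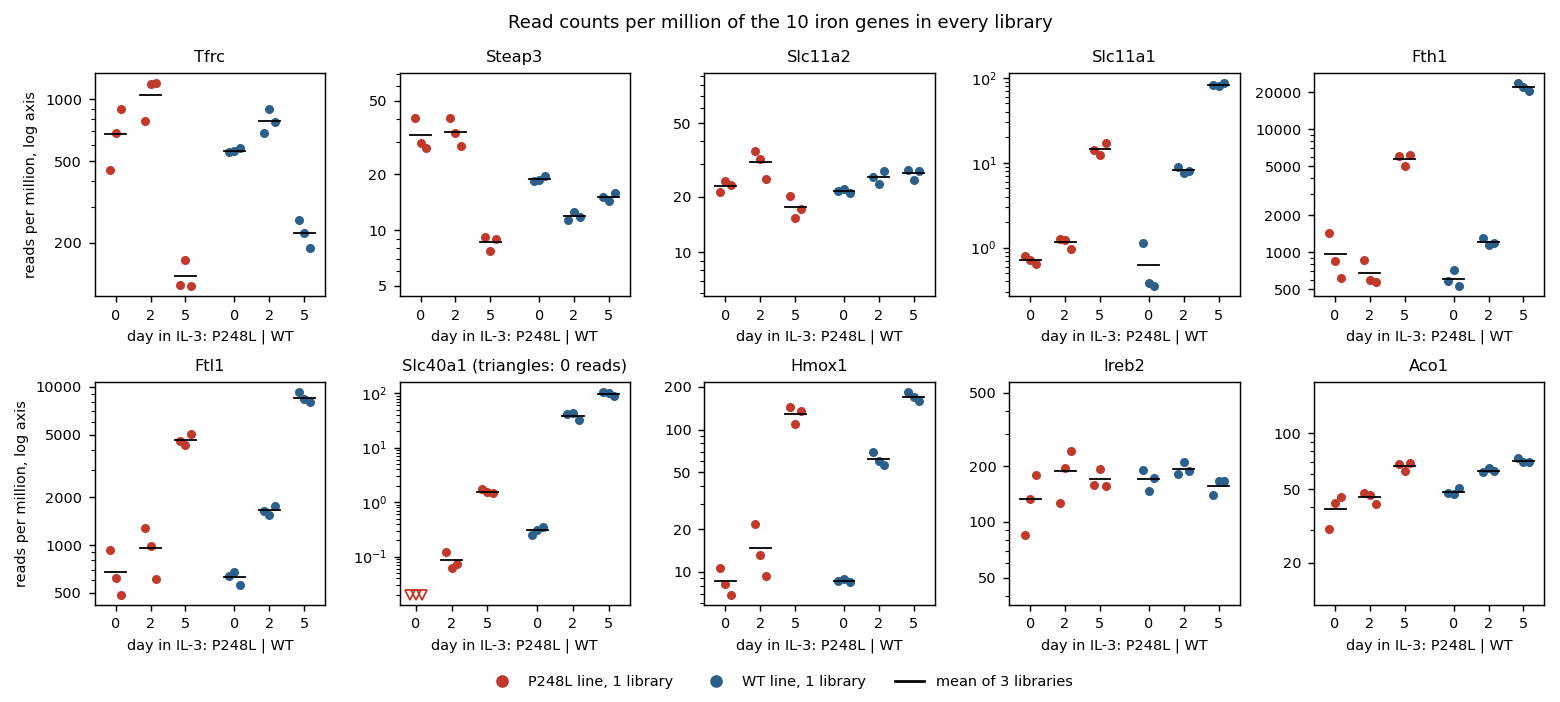
CPM on a log axis for each of the 10 genes, 1 point per library, with the P248L line left and the WT line right and days 0 (untreated), 2 and 5 within each. Black bars are means of 3 libraries, and open triangles mark libraries with 0 reads, which are the P248L untreated libraries for Slc40a1; Fth1 was highest in WT day 5 at 20549 to 23645 CPM.

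Uptake starts with Tfrc, the transferrin receptor (chr16:32608896-32632794 on GRCm38.p6). In the P248L line it had 452, 688 and 894 CPM untreated, 788, 1183 and 1197 CPM at day 2, and 126, 166 and 124 CPM at day 5. In WT cells it was at 552, 561 and 577 CPM untreated, 688, 901 and 774 CPM at day 2, and 259, 224 and 189 CPM at day 5. Day 5 libraries lay below every untreated and day 2 library of their line, and every P248L day 5 library lay below every WT day 5 library.

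Tfrc fell at day 5 in P248L cells by 2.29 ± 0.23 on the log2 scale (SE, 3 against 3 libraries, adjusted p = 6.1e-08), and in WT cells by 1.33 ± 0.22 (adjusted p = 2.7e-05). The fall was larger in the P248L line, with a difference of the responses of -0.96 ± 0.30 (adjusted p = 0.0261), and P248L cells were 0.70 ± 0.22 below WT cells at day 5 (adjusted p = 0.0136). Leaving out P248L day 5 library 1, P248L day 5 library 3 or WT day 5 library 1 raised these 2 adjusted p-values to between 0.0553 and 0.0745, and without scaling beyond library size the difference of the responses had an adjusted p of 0.0826. At day 2 Tfrc was 0.64 ± 0.21 above untreated in P248L cells (adjusted p = 0.0248), with overlapping libraries. In WT cells it was 0.48 ± 0.21 above and was not called (adjusted p = 0.0783). The WT change passed, at the same 0.48, without the outlying pair of P248L libraries (adjusted p = 0.0175). It also passed in edgeR fitted to the compared libraries alone (0.47, adjusted p = 0.00267). The P248L day 2 call was lost in 7 of 30 alternatives, with adjusted p = 0.227 without the outlying pair and 0.101 without P248L untreated library 1 alone.

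Steap3 encodes the main endosomal reductase that turns ferric into ferrous iron in red cell precursors. The P248L libraries had 40.4, 29.4 and 27.9 CPM untreated, 40.3, 33.4 and 28.6 CPM at day 2, and 9.22, 7.67 and 8.97 CPM at day 5. WT levels were 18.4, 18.7 and 19.6 CPM untreated, 11.3, 12.6 and 11.8 CPM at day 2, and 15.2, 14.4 and 15.8 CPM at day 5. The lines thus changed places: every P248L library was above every WT library in untreated cells and at day 2, and below every WT library at day 5.

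Steap3 was higher in the P248L line than in WT by 0.79 ± 0.15 untreated (adjusted p = 0.00116) and by 1.52 ± 0.16 at day 2 (adjusted p = 5.24e-07), and lower by day 5 (log2 fold change -0.81 ± 0.16, adjusted p = 0.000475). At day 5 it fell by 1.91 ± 0.16 in P248L cells (adjusted p = 7.86e-09), against a change of -0.32 ± 0.16 in WT cells (adjusted p = 0.0713, or 0.00857 without the outlying pair), and the responses differed by -1.59 ± 0.22 (adjusted p = 4e-05). At day 2 P248L cells showed a change of 0.07 ± 0.15 (adjusted p = 0.763) and WT cells a fall of 0.67 ± 0.16 (adjusted p = 0.00194). Without the outlying pair the P248L change was 0.37 and passed (adjusted p = 0.0242). The day 2 responses of the lines differed by 0.74 ± 0.22, which had an adjusted p of 0.0395, and 13 of the 18 fits without 1 library lost it, with adjusted p up to 0.102.

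Slc11a2 encodes DMT1, which carries ferrous iron out of the endosome. P248L levels were 21.2, 24.3 and 23.2 CPM untreated, 35.4, 32.1 and 24.8 CPM at day 2, and 20.1, 15.3 and 17.1 CPM at day 5. The WT libraries had 21.6, 22.1 and 20.9 CPM untreated, 25.4, 23.5 and 27.6 CPM at day 2, and 28.0, 24.6 and 27.6 CPM at day 5. At day 5 all 3 P248L libraries lay below the WT libraries, with a log2 fold change of -0.61 ± 0.14 (adjusted p = 0.00201).

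Slc11a2 fell at day 5 in P248L cells (-0.39 ± 0.14, adjusted p = 0.0227) and was not called in WT cells (0.31 ± 0.14, adjusted p = 0.0565), where 6 of 29 alternatives gained a call, among them the fit without the outlying pair (adjusted p = 0.0142). At day 2 P248L cells were at 0.27 ± 0.14 relative to WT cells (adjusted p = 0.145), or at 0.41 without the outlying pair (adjusted p = 0.00992). The P248L day 5 call was lost with DESeq2 size factors (adjusted p = 0.0557), and without P248L untreated library 2 or P248L day 5 library 2 or 3 (adjusted p 0.05 to 0.107), and when only the 6 libraries compared were fitted (adjusted p = 0.0806). The responses differed by -0.70 ± 0.20 (adjusted p = 0.0157), which was lost without P248L day 5 library 2 (adjusted p = 0.0506) and without scaling (adjusted p = 0.132). A rise of 0.43 ± 0.14 at day 2 in P248L cells (adjusted p = 0.0223) had an adjusted p of 0.12 with the replicate number as a block in these 2 groups, and 7 of 30 alternatives lost it. These counts sum all isoforms of the gene, with and without the hairpin in the 3′ UTR.

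Slc11a1 encodes NRAMP1, the iron and manganese transporter of phagosomes in macrophages and neutrophils. P248L levels were 0.788, 0.721 and 0.640 CPM untreated, 1.28, 1.23 and 0.956 CPM at day 2, and 14.2, 12.2 and 17.1 CPM at day 5. In WT cells it was at 1.14, 0.387 and 0.355 CPM untreated, 8.89, 7.52 and 8.04 CPM at day 2, and 81.3, 80.5 and 85.9 CPM at day 5. The WT day 2 libraries were already above all untreated ones, and every P248L library at day 2 and day 5 lay below every WT library of that day.

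At day 5 Slc11a1 had risen by 4.31 ± 0.27 on the log2 scale in P248L cells (adjusted p = 1.46e-10) and by 7.07 ± 0.29 in WT cells (adjusted p = 3e-13). At day 2 its change was 0.69 ± 0.32 in P248L cells (adjusted p = 0.0942), against a rise of 3.73 ± 0.28 in WT cells (adjusted p = 5.33e-09). P248L cells were 2.79 ± 0.26 below WT cells at day 2 (adjusted p = 1.54e-07) and 2.51 ± 0.21 below at day 5 (adjusted p = 3.67e-08). These fold changes start from 53 reads over the 3 P248L and 41 reads over the 3 WT untreated libraries. The difference of the responses was -3.04 ± 0.43 at day 2 (adjusted p = 0.000131) and -2.76 ± 0.40 at day 5 (adjusted p = 6.16e-05). WT untreated library 1 held 23 of the 41 WT untreated reads. Without it the WT rise was 4.44 at day 2 and 7.76 at day 5, and the difference of the responses -3.73 at day 2 and -3.49 at day 5, and the P248L day 2 change passed (0.71, adjusted p = 0.0223).

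**Figure D2:**
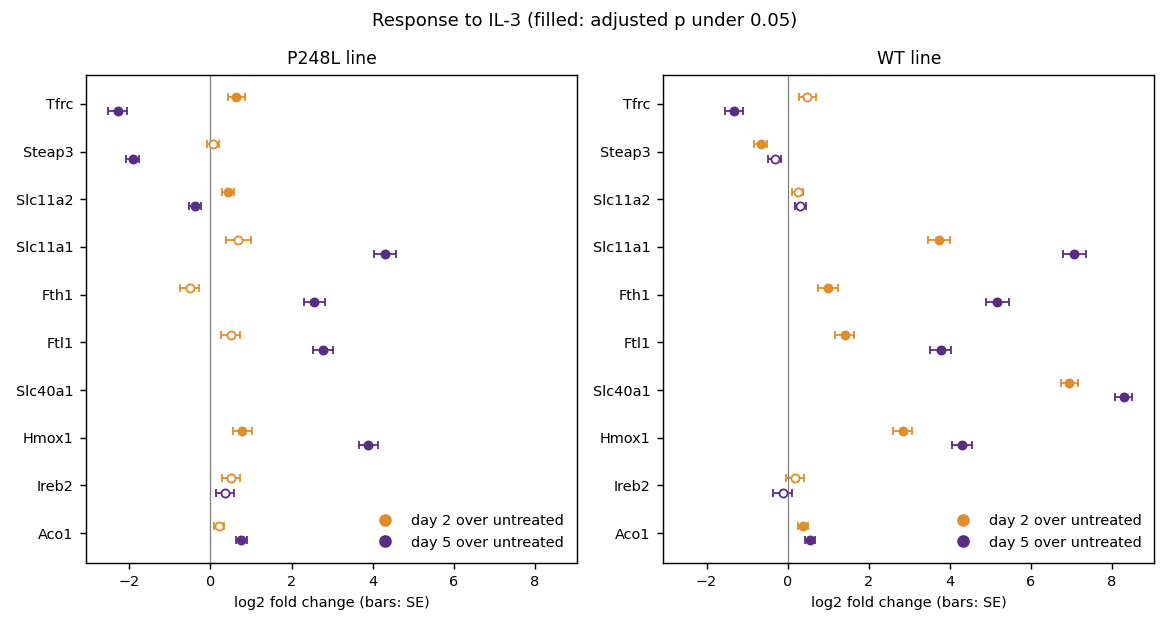
Log2 fold changes of day 2 and day 5 over untreated cells with SE bars, P248L line in the left panel and WT line in the right, filled where the adjusted p was under 0.05. Slc40a1 is not drawn for P248L, whose untreated libraries had 0 reads, and at day 5 Fth1 lies at 2.57 in P248L and 5.18 in WT, Slc11a1 at 4.31 in P248L and 7.07 in WT.

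Storage is the work of ferritin, a shell of heavy chains (Fth1, which oxidise iron) and light chains (Ftl1, which help to form the mineral core). Fth1 (chr19:9980600-9985111) had 1439, 852 and 617 CPM untreated, 868, 596 and 569 CPM at day 2, and 6019.6, 5056 and 6139 CPM at day 5 in the P248L line. WT levels were 586, 713 and 533 CPM untreated, 1319, 1139.5 and 1196 CPM at day 2, and 23645, 22077 and 20549 CPM at day 5. Fth1 took 0.53% of all reads in genes in P248L day 5 cells, against 0.103% in untreated P248L cells, and 1.88% in WT day 5 cells, against 0.0703% in untreated WT cells.

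Ftl1 (chr7:45457944-45459886) had 928, 618 and 486 CPM untreated, 1292, 982 and 609 CPM at day 2, and 4566, 4308 and 5014 CPM at day 5 in the P248L line. The WT libraries had 635, 678 and 560.3 CPM untreated, 1652, 1557 and 1769 CPM at day 2, and 9273, 8329 and 7994 CPM at day 5. For both chains the day 5 libraries of each line stood above all its earlier ones, and the P248L day 5 libraries below the WT ones.

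Both chains rose less in the P248L line by day 5. Fth1 rose at day 5 by 2.57 ± 0.25 in P248L cells (adjusted p = 7.01e-08) and by 5.18 ± 0.29 in WT cells (adjusted p = 2.06e-11), and the responses differed by -2.61 ± 0.35 (adjusted p = 2.4e-05). Ftl1 rose by 2.77 ± 0.25 in P248L cells (adjusted p = 1.89e-08) and by 3.77 ± 0.26 in WT cells (adjusted p = 3.9e-10), with a difference of -1.0 ± 0.33 (adjusted p = 0.0323) that was lost in 7 of the 18 fits without 1 library, with adjusted p up to 0.0838, and without scaling (adjusted p = 0.0905). Whether the differences of the 2 chains themselves differ was not tested.

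At day 5 P248L cells held less Fth1 than WT cells by 1.94 ± 0.25 (adjusted p = 4.89e-06) and less Ftl1 by 0.88 ± 0.23 (adjusted p = 0.00492). At day 2 they were also lower, by 0.85 ± 0.24 for Fth1 (adjusted p = 0.011) and by 0.79 ± 0.23 for Ftl1 (adjusted p = 0.0138). The day 2 calls were lost for Fth1 without P248L day 2 library 2 (adjusted p = 0.054) and for Ftl1 without P248L day 2 library 3 (adjusted p = 0.06). Relative to untreated cells at day 2, P248L cells showed -0.52 ± 0.24 in Fth1 (adjusted p = 0.0988) and 0.50 ± 0.23 in Ftl1 (adjusted p = 0.0952), while WT cells had risen by 1.0 ± 0.24 in Fth1 (adjusted p = 0.0028) and by 1.41 ± 0.24 in Ftl1 (adjusted p = 0.000107). The P248L day 2 values turned on single libraries. Leaving these libraries out also shifts the transcript-length trend between the groups, and the part of that shift was not tested. For Ftl1 the change passed without P248L untreated library 1 (0.80, adjusted p = 0.00871), without P248L day 2 library 3 (0.75, adjusted p = 0.0103) and without both (1.04, adjusted p = 6.22e-05). For Fth1 it passed without P248L untreated library 3 (-0.74, adjusted p = 0.0114) and without P248L day 2 library 1 (-0.71, adjusted p = 0.0337). The day 2 responses of the lines differed by -1.51 ± 0.34 for Fth1 (adjusted p = 0.00787) and by -0.91 ± 0.33 for Ftl1, which was not called (adjusted p = 0.0979) but passed without P248L untreated library 3 (adjusted p = 0.0282) or P248L day 2 library 1 (adjusted p = 0.0211). Untreated P248L cells were at 0.67 ± 0.24 relative to untreated WT cells in Fth1 (adjusted p = 0.057), and 7 of 29 alternatives called it.

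Divided by transcript length, the ferritin chains were the most abundant of the 10 messages in all 6 groups. In P248L day 5 cells Fth1 stood at 6177 ± 639 and Ftl1 at 4782 ± 369 CPM per kb (SD, n = 3), and in WT day 5 cells Fth1 stood at 23778 ± 1667 and Ftl1 at 8814 ± 685 CPM per kb. With the longest coding transcript of Fth1, 1494 bases in place of 929, its mean was 3841 CPM per kb in P248L and 14786 CPM per kb in WT day 5 cells, so which chain was higher in P248L cells depends on the transcript taken. The next messages per kb at day 5 were Hmox1, at 82.4 ± 11.3 CPM per kb in P248L and 108 ± 8.17 CPM per kb in WT cells. Both ferritin genes have processed copies elsewhere in the mouse genome, and reads that map to several places are not counted for a gene, so their levels are uncertain. The rows of Ftmt and Fthl17, related ferritin genes, held 0 reads in all libraries.

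Slc40a1, ferroportin (chr1:45908070-45926532), differed most between the lines. In the P248L line it had 0 reads in all 3 untreated libraries, 0.124, 0.0616 and 0.0735 CPM at day 2, and 1.71, 1.53 and 1.44 CPM at day 5. In WT cells it was at 0.249, 0.310 and 0.355 CPM untreated, 41.3, 42.6 and 32.4 CPM at day 2, and 105, 100.5 and 87.8 CPM at day 5. The groups did not overlap at any time, and the highest P248L library at day 5 was below the lowest WT library at day 2.

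Over 3 libraries these levels rest on 0, 5 and 80 reads in P248L cells at the 3 times and on 21, 2309 and 4779 reads in WT cells. A count of 0 allows a level of up to 0.0412 CPM over the P248L untreated group, taking 3 reads as the limit. Intervals and limits here cover counting error only. P248L cells were 419-fold lower than WT cells at day 2 (95% exact interval of the read ratio 179 to 1292) and 62.0-fold lower at day 5 (49.7 to 78.4), and edgeR's adjusted p-values were 1.78e-12 and 1.19e-12. Untreated P248L cells, at 0 against 21 reads, were at least 7.44-fold lower than untreated WT cells (edgeR adjusted p = 2.08e-05). The gene was kept for testing by reads of groups in which it was high, so none of these p-values is taken as support.

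Relative to untreated cells Slc40a1 at day 5 was at least 38.4-fold higher in P248L cells (adjusted p = 7.23e-10) and 320-fold higher in WT cells (209 to 518, adjusted p = 1.63e-14). In WT cells the rise at day 2 was 127-fold (82.6 to 205, adjusted p = 6.74e-13). The P248L day 2 level, 5 reads against 0 in untreated cells, was at least 2.24-fold higher. Here too the gene was kept for testing by reads of groups in which it was high, so these adjusted p-values are not taken as support. The call made on the 5 reads of P248L day 2 cells (adjusted p = 0.0124) was lost without P248L day 2 library 1 (adjusted p = 0.0557). Because the P248L untreated group had no reads, the difference of the 2 lines' responses has no interpretable value for this gene.

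Hmox1 encodes heme oxygenase 1, which opens the heme ring and frees its iron. The P248L libraries had 10.7, 8.16 and 6.92 CPM untreated, 21.9, 13.1 and 9.34 CPM at day 2, and 143, 109 and 135 CPM at day 5. WT levels were 8.65, 8.90 and 8.43 CPM untreated, 69.9, 60.0 and 56.7 CPM at day 2, and 184, 169 and 158 CPM at day 5. The lines overlapped when untreated, were apart at day 2, and were close at day 5, when the highest P248L library lay just below the lowest WT one.

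Hmox1 rose at day 5 by 3.90 ± 0.24 in P248L cells (adjusted p = 1.57e-10) and by 4.29 ± 0.25 in WT cells (adjusted p = 3.6e-11), and the difference of the responses was not called (-0.40 ± 0.31, adjusted p = 0.383). At day 5 P248L cells were at -0.40 ± 0.21 relative to WT cells (adjusted p = 0.143), which passed without P248L day 2 library 1 (adjusted p = 0.0352) and without the outlying pair (adjusted p = 0.0239). It also passed in edgeR fitted to the compared day 5 libraries alone (-0.41, adjusted p = 0.00516). At day 2 they were 2.06 ± 0.23 below (adjusted p = 1.22e-06). The day 2 rise was 0.79 ± 0.23 in P248L cells (adjusted p = 0.0113), lost without P248L day 2 library 1 (adjusted p = 0.0985), and 2.84 ± 0.23 in WT cells (adjusted p = 2.38e-08). These day 2 responses differed by -2.06 ± 0.32 (adjusted p = 0.000343).

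**Figure D3:**
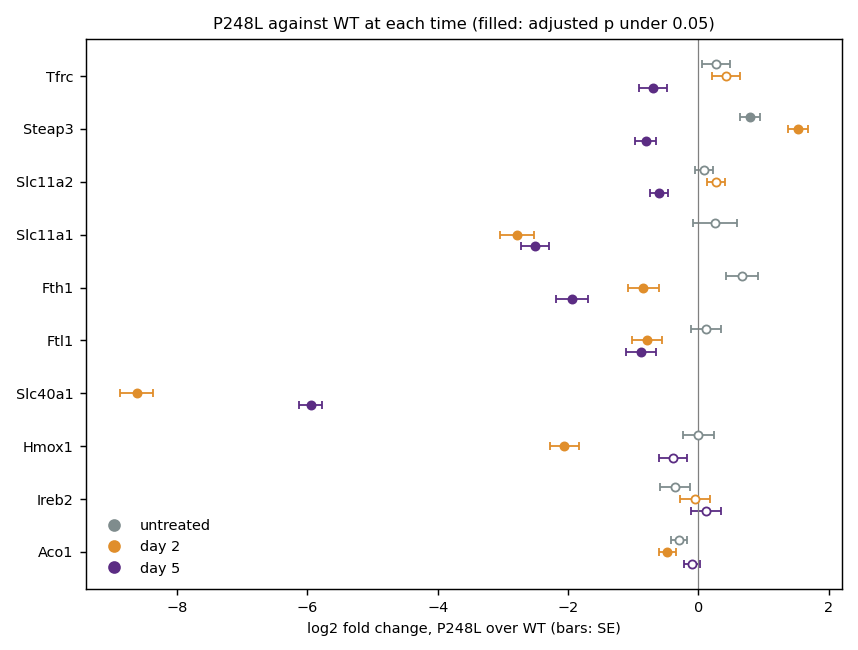
Log2 fold changes of P248L over WT cells in untreated cells, at day 2 and at day 5, with SE bars, filled where the adjusted p was under 0.05. At day 5 the 7 filled points all lie left of 0, Steap3 lies right of 0 in untreated cells (0.79) and at day 2 (1.52), and untreated Slc40a1 is not drawn because P248L cells had 0 reads.

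Of the sensors, Aco1 rose at day 5 in both lines and Ireb2 was not called. Ireb2 encodes IRP2, whose protein is degraded when iron is plentiful, and its level ranged over 84.5 to 241 CPM in P248L libraries and 139.6 to 210.2 CPM in WT libraries. It did not pass in any of the 11 comparisons, with adjusted p from 0.0921 to 0.906. With the replicate number as a block in P248L untreated and day 2 cells alone, its day 2 change of 0.52 passed (adjusted p = 0.0255), as it did with DESeq2 (adjusted p = 0.0434), without P248L untreated library 3 (0.80, adjusted p = 0.00788) and without P248L day 2 library 1 (0.74, adjusted p = 0.0111). Without P248L untreated library 3 its P248L day 5 change of 0.59 (adjusted p = 0.0242) and its untreated difference of -0.64 between P248L and WT cells (adjusted p = 0.0334) passed too. Without scaling, its WT day 5 change of -0.56 also passed (adjusted p = 0.0414). From day 2 to day 5 in WT cells its change was -0.30 ± 0.23 (adjusted p = 0.25). That change passed in edgeR fitted to the compared libraries alone (-0.31, adjusted p = 0.00669) and without scaling (-0.57, adjusted p = 0.0415).

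Aco1 encodes IRP1, a cytosolic aconitase that becomes an RNA-binding protein when it loses its iron-sulfur cluster. It had 30.4, 42.2 and 45.2 CPM untreated, 47.3, 46.7 and 41.5 CPM at day 2, and 68.1, 63.0 and 68.8 CPM at day 5 in the P248L line. The WT libraries had 47.3, 47.3 and 50.4 CPM untreated, 61.6, 64.8 and 62.4 CPM at day 2, and 73.8, 70.1 and 69.7 CPM at day 5. Its day 5 rise was 0.76 ± 0.13 in P248L cells (adjusted p = 3.01e-05) and 0.56 ± 0.12 in WT cells (adjusted p = 0.000606). Without scaling beyond library size, which moved the median of all genes at WT day 5 to -0.49, Aco1 was no longer called in WT cells (0.12, adjusted p = 0.484). At day 2 P248L cells were 0.48 ± 0.12 below WT cells (adjusted p = 0.00624). The day 2 change was 0.21 ± 0.13 in P248L cells (adjusted p = 0.206), and the rise of 0.38 ± 0.12 in WT cells (adjusted p = 0.0192) was lost in 5 of 29 alternatives, among them the fits without WT untreated library 1 or 2 or WT day 2 library 2 (adjusted p 0.0524 to 0.0575). Without P248L untreated library 3 the P248L day 2 change passed (0.33, adjusted p = 0.0482), as did the untreated difference of -0.40 between P248L and WT cells (adjusted p = 0.0264).

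The lines differed in 2 of these genes untreated, in 7 at day 2 and in 7 at day 5, while the share over all genes also grew. Between untreated P248L and WT cells 1 gene was higher and 1 lower, where 21.7% of all tested genes differed. The lower one was Slc40a1, on 0 against 21 reads. At day 2 Steap3 was higher and 6 genes were lower in P248L cells, where 35.8% of all tested genes differed. At day 5 none was higher and 7 were lower, where 45.5% differed and 22.7% were lower. By the test of the responses themselves, 1 was called up and 3 down at day 2, where 9.55% of all genes were called, and 6 were called down at day 5, where 12.2% of all genes were called down and 26.9% in either direction.

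At day 2 alone, 4 of the 10 genes rose in P248L cells, where 40% of all tested genes changed, and in WT cells 6 rose and 1 fell, where 43.9% changed. The 4 include Slc40a1, on 5 reads against 0. The P248L count moved with the processing. It was 7 with DESeq2, 4 with limma-voom, 2 with upper-quartile factors, and 5 without the outlying pair. It was 7 without P248L untreated library 3 and 2 without P248L day 2 library 2. When edgeR was fitted to the 6 libraries compared alone it was 0, with 1 at an unadjusted p under 0.05. Between day 2 and day 5, 6 genes rose and 3 fell in P248L cells, where 70.2% of all tested genes changed, and 5 rose and 1 fell in WT cells, where 70.7% changed. Without the outlying pair, Aco1 (0.18, adjusted p = 0.0345) and Steap3 (0.35, adjusted p = 0.00719) were also called higher in WT cells. Tfrc fell by 2.93 ± 0.23 in P248L (adjusted p = 3.13e-09) and by 1.81 ± 0.22 in WT cells (adjusted p = 9.02e-07) over this interval.

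The ratio of Fth1 to Tfrc reads sets storage against uptake within a library and does not depend on how libraries are scaled. It does set a message of 929 bases over one of 4890 bases, so it is exposed to the transcript-length trend. The P248L untreated and day 2 ratios followed the order of that trend. In the P248L line the untreated libraries had ratios of 3.18, 1.24 and 0.689, the day 2 libraries 1.10, 0.504 and 0.476, and the day 5 libraries 48.0, 30.5 and 49.7. In the WT line the untreated libraries had ratios of 1.06, 1.27 and 0.924, the day 2 libraries 1.92, 1.26 and 1.54, and the day 5 libraries 91.2, 98.7 and 109. The day 5 libraries stood far above all others in each line, and the P248L ratios lay below all WT ratios at day 2 and at day 5.

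On the log2 scale this ratio at day 5 exceeded that of untreated cells by 4.90 in P248L and by 6.53 in WT cells, and P248L cells were at -1.25 relative to WT cells. Each of these had p = 0.1 in a two-sided exact permutation test, the smallest p that 3 against 3 libraries can give. At day 2 the difference from untreated was -1.12 in P248L cells and 0.53 in WT cells, each with p = 0.2 by the exact permutation test, and P248L cells were at -1.28 relative to WT cells (exact p = 0.1). Untreated P248L cells were at 0.38 relative to untreated WT cells (exact p = 0.8). With 1 library left out this untreated difference lay between -0.22 and 0.88, so its sign is not settled. The P248L difference from untreated lay between -1.63 and -0.53 at day 2 and between 4.39 and 5.50 at day 5, with the ends set by leaving out P248L untreated library 3 or 1.

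**Figure D4:**
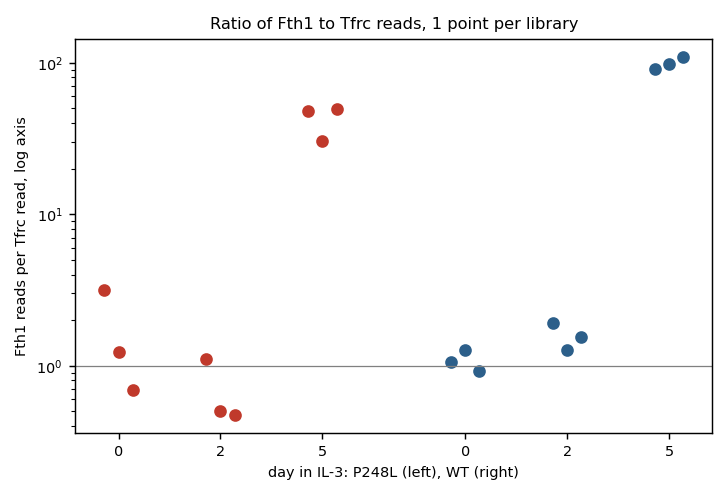
Fth1 reads per Tfrc read on a log axis, 1 point per library, P248L line left and WT line right, with days 0 (untreated), 2 and 5 in each. Day 5 libraries lie at 30.5 to 49.7 in P248L and 91.2 to 109 in WT cells, and all earlier libraries between 0.476 and 3.18.

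Within the P248L untreated and day 2 groups, the spread of Fth1, Ftl1, Tfrc and Ireb2 moved with the transcript-length trend. In untreated library 1, where short transcripts stood highest, Fth1 was 0.66 and Ftl1 0.51 above the group mean on the log2 scale, and Tfrc 0.53 and Ireb2 0.58 below it. In untreated library 3, where they stood lowest, Fth1 was 0.56 and Ftl1 0.43 below, and Tfrc 0.45 and Ireb2 0.51 above. Slc11a2 moved little in untreated cells, at -0.11 in P248L untreated library 1 and 0.02 in library 3, but lay at 0.22 in P248L day 2 library 1 and -0.29 in library 3. Hmox1 lay at 0.34 and -0.29 in P248L untreated libraries 1 and 3, and at 0.65 and -0.57 in day 2 libraries 1 and 3. Steap3 lay at 0.33 and -0.20 in these untreated libraries and at 0.25 and -0.24 in these day 2 libraries. In WT untreated library 2, where the trend was 0.32, Fth1 lay at 0.23, Ftl1 at 0.12, Ireb2 at -0.20 and Tfrc at -0.01. The annotated transcripts are 929 and 968 bases for Fth1 and Ftl1, and 4890 and 5770 bases for Tfrc and Ireb2. The part of this trend in the day 2 results of the P248L line was not tested. At day 5 the trend was between -0.09 and 0.19 in P248L and between -0.05 and 0.07 in WT libraries.

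**Figure D5:**
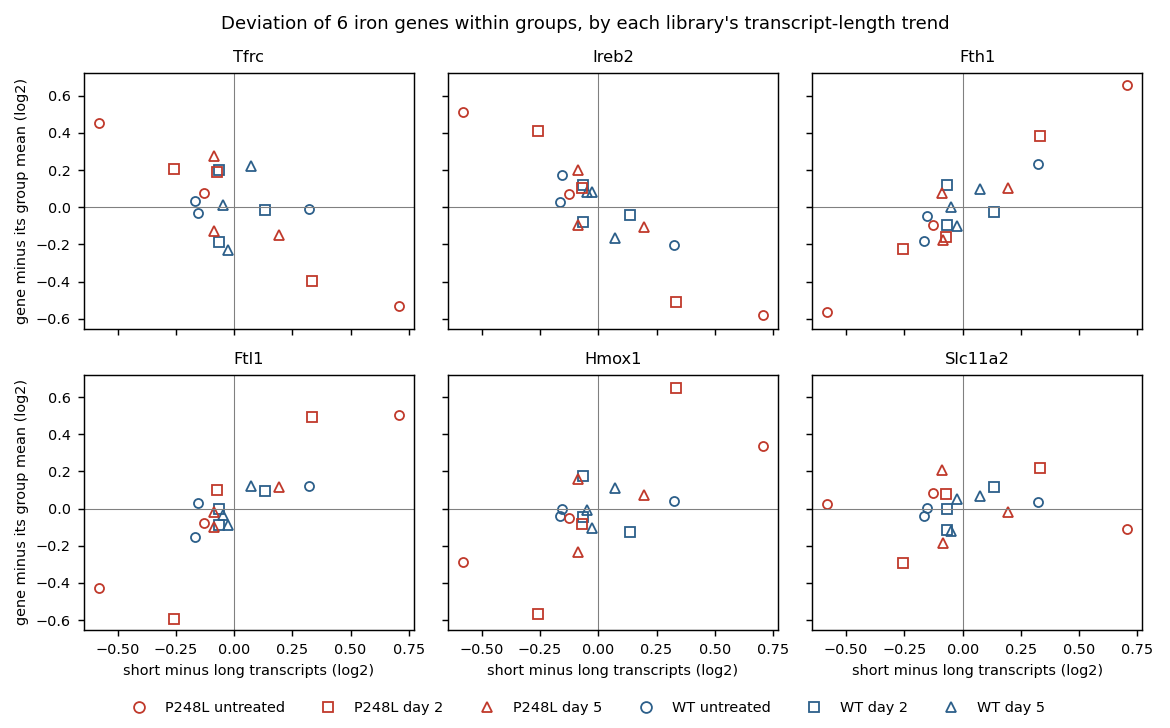
Each panel plots 1 gene's log2 deviation from its group mean against how far short transcripts stood above long ones in the same library (log2), 1 symbol per library, P248L red and WT blue. In P248L untreated library 1, at 0.71 on the x axis, Fth1 lies at 0.66 and Tfrc at -0.53.

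By summed level, macrophage markers were highest in WT day 5 libraries and neutrophil markers in P248L day 5 libraries. Fth1, Ftl1, Slc11a1, Slc40a1 and Hmox1 were also highest in WT day 5 libraries. The summed level of the 13 macrophage markers in the files was 20081 to 27073 CPM in P248L day 5 libraries and 65629 to 80959 CPM in WT day 5 libraries, against 542 to 817 CPM in P248L and 540.2 to 646 CPM in WT untreated libraries. At day 2 it was 581 to 880.2 CPM in P248L and 1495 to 1696 CPM in WT libraries. The 12 neutrophil markers summed to 28583 to 40748 CPM in P248L and 9405 to 15095 CPM in WT libraries at day 5. They summed to 142 to 205 CPM in P248L and 15212 to 18708 CPM in WT libraries at day 2, and to 45.0 to 53.6 CPM in P248L and 124 to 152 CPM in WT untreated libraries. Such sums weigh most on abundant genes. Gene by gene at day 5, 8 of 10 tested macrophage markers were lower in P248L than in WT cells and 1 higher. Of 12 neutrophil markers 6 were higher, 0 lower and 6 not called. Over all tested genes 45.5% differed and 22.7% were lower. Per group 1 to 5 of the macrophage markers and at most 1 of the neutrophil markers had 0 reads. The part of such cells in the changes of Fth1, Ftl1, Slc11a1, Slc40a1 and Hmox1 was not tested.

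The 10 mast cell and basophil markers summed to 78.3 to 115 CPM in P248L and 2213 to 3209 CPM in WT libraries at day 5. Untreated, they summed to 961 to 1144 CPM in P248L and 972 to 1161 CPM in WT libraries. Such sums weigh most on abundant genes. Of the 7 tested, 2 rose and 3 fell at day 5 in WT cells, where 35.7% of all tested genes rose and 37.4% fell. At day 5, 4 of the 7 were lower in P248L than in WT cells and 0 higher, where 22.7% of all tested genes were lower. The 12 progenitor markers summed to 627 to 781 CPM in P248L and 154 to 191 CPM in WT libraries at day 5, against 9248 to 12251 CPM in P248L and 10870.5 to 11852 CPM in WT untreated libraries. Of 20 genes of DNA replication and mitosis, 19 fell at day 5 in P248L cells, against 36.2% of all tested genes, and 20 in WT cells, against 37.4%. Between the lines at day 5, 19 of these 20 genes were higher in P248L than in WT cells and 0 lower, where 45.5% of all tested genes differed. By the test of the responses 16 were called up and 0 down, where 26.9% were called. Tfrc went the other way, with a log2 fold change of -0.70 in P248L against WT cells at day 5. Dividing cells are known to need transferrin iron, and the part of this in the fall of Tfrc was not tested.

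Across the 18 libraries, the messages most like each gene were found by Pearson's r of log2 CPM among 8699 genes at 10 CPM or more. These libraries fall into 6 groups, so r mostly follows the group means, and it is given as a description. Closest to Fth1 were Ctsd, the lysosomal protease cathepsin D, which is also in the macrophage list (r = 0.996), 4930471M23Rik (0.994) and Zbp1 (0.992). Closest to Tfrc were the zinc transporter gene Slc39a6 (r = 0.981), the nuclear pore gene Nup93 (0.979) and Fastkd2 (0.978). Slc40a1 was closest to Il1rl1, the IL-33 receptor gene (r = 0.978), Lpl (0.963) and Pde2a (0.955), and Hmox1 to Mocos (0.995), Aldh3b1 (0.993) and Plaur (0.992).

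Other genes of iron transport and handling, 17 tested of 35 listed, were more often up than down at day 5: 8 rose and 3 fell in P248L cells, against 34.8% up and 36.2% down over all genes, and 11 rose and 4 fell in WT cells, against 35.7% up and 37.4% down. Their median log2 fold change was 0.77 in P248L and 0.85 in WT cells. Fbxl5, the iron-sensing adaptor that sends IRP2 for degradation, reached 385 ± 26.8 CPM in P248L day 5 cells (SD, n = 3; log2 fold change 3.33, adjusted p = 3.59e-11) and 355 ± 98.4 CPM in WT day 5 cells (2.94, adjusted p = 9.9e-11). Mcoln1, a lysosomal channel that passes iron, rose by 1.35 in P248L cells (adjusted p = 4.64e-06) and by 2.10 in WT cells (adjusted p = 1.64e-08). The iron-binding proteins lactoferrin (Ltf) and lipocalin 2 (Lcn2), which are also in the neutrophil list, were lower in P248L than in WT cells at day 2, as ferritin was, and higher at day 5, when ferritin was lower. At day 2 Ltf was at 0.325 ± 0.0417 CPM in P248L and 113 ± 19.2 CPM in WT cells (log2 fold change -8.38, adjusted p = 4.97e-12), and Lcn2 at 33.0 ± 9.19 CPM in P248L and 368 ± 60.9 CPM in WT cells (-3.47, adjusted p = 1.23e-09). At day 5 Ltf was at 504 ± 107 CPM in P248L and 209.9 ± 43.9 CPM in WT cells (log2 fold change 1.26, adjusted p = 7.58e-05), and Lcn2 at 691 ± 35.2 CPM in P248L and 180.4 ± 38.8 CPM in WT cells (1.94, adjusted p = 7.29e-07).

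Genes of heme uptake, breakdown and export had 5 up and 2 down of 10 tested in P248L cells at day 5, against 34.8% up and 36.2% down over all genes, and 8 up and 1 down in WT cells (7 up and 2 down without scaling), against 35.7% up and 37.4% down. Their median log2 fold change was 0.39 in P248L and 1.78 in WT cells. They include Lrp1, a receptor for the heme carrier hemopexin, at 317 ± 67.5 CPM in P248L and 701 ± 54.7 CPM in WT day 5 cells (log2 fold change of P248L over WT -1.15, adjusted p = 0.000292). Hmox2, the constitutive heme oxygenase, rose by 1.0 in P248L cells (adjusted p = 1.69e-05) and by 1.85 in WT cells (adjusted p = 8.55e-09). Blvra, a biliverdin reductase gene, rose by 0.92 in P248L cells (adjusted p = 3.42e-06) and by 1.52 in WT cells (adjusted p = 4.81e-09). The responses differed by -0.84 for Hmox2 (adjusted p = 0.00821) and by -0.60 for Blvra (adjusted p = 0.0158). Haptoglobin (Hp) differed the other way, by 1.87 (adjusted p = 0.000301).

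More mitochondrial iron genes fell than rose at day 5. Of 27 tested genes of mitochondrial iron and iron-sulfur cluster assembly, 17 fell and none rose in P248L cells at day 5, where 36.2% of all tested genes fell, and 15 fell and 2 rose in WT cells, where 37.4% fell, with median log2 fold changes of -0.52 in P248L and -0.52 in WT cells. With the other scalings 13 to 19 fell in P248L and 14 to 21 in WT cells. Hspa9, the chaperone of cluster transfer, fell by 1.27 in P248L cells (adjusted p = 7.18e-08) and by 1.31 in WT cells (adjusted p = 3.78e-08). The iron importer gene Slc25a37 was at 0.01 in P248L cells (adjusted p = 0.98) and fell by 1.01 in WT cells (adjusted p = 1.75e-06), and the responses differed by 1.02 (adjusted p = 0.000509).

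Heme synthesis genes split, with 3 up and 7 down of 12 in P248L cells at day 5 and 5 up and 6 down in WT cells (1 up and 7 down without scaling), where 71.1% of all genes changed in P248L and 73.1% in WT cells. Their median log2 fold change was -0.46 in P248L and -0.44 in WT cells. Alas1, the rate-limiting enzyme of heme synthesis outside red cells, rose early: by 2.82 in P248L (adjusted p = 1.06e-10) and 3.61 in WT cells (adjusted p = 1.13e-12) at day 2, and by 2.94 in P248L (adjusted p = 2.74e-12) and 2.02 in WT cells (adjusted p = 1.75e-10) at day 5. Abcb6, a porphyrin transporter gene, fell at day 5 by 2.39 in P248L (adjusted p = 1.5e-09) and by 2.49 in WT cells (adjusted p = 8.31e-10).

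The oxidative stress factor NRF2 is known to induce Hmox1, both ferritin chains and Slc40a1. Of 19 other NRF2 targets, 10 rose and 1 fell at day 2 in P248L cells, against 18.5% up and 21.5% down over all genes, and 14 rose and none fell in WT cells, against 22.1% up and 21.8% down. Their median log2 fold change at day 2 was 0.52 in P248L and 0.83 in WT cells. At day 5 the counts were 10 up and 2 down in P248L and 8 up and 4 down in WT cells (7 up and 9 down in WT without scaling), against 34.8% up in P248L and 35.7% up in WT cells over all genes. Slc7a11, the cystine importer gene, stood at 119 ± 27.4 CPM in P248L and 1076 ± 240.1 CPM in WT cells at day 2, and the day 2 responses differed by -2.92 (adjusted p = 6.58e-05). In P248L against WT cells at day 2, 12 of the 19 targets were lower and 1 higher, where 35.8% of all tested genes differed. By the test of the day 2 responses, P248L minus WT, 8 targets were called down and 1 up, where 9.55% of all tested genes were called in either direction. At day 5 this test called 5 up and 4 down, where 26.9% of all tested genes were called. In P248L against WT cells at day 5, 7 targets were higher and 3 lower, where 45.5% of all tested genes differed, and their median log2 fold change was 0.20.

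Among regulators of heme and iron gene transcription, 11 rose and 3 fell of 17 at day 5 in P248L cells (8 up and 3 down without scaling), and 11 rose and 2 fell in WT cells (8 up and 6 down without scaling), where 34.8% of all genes rose in P248L and 35.7% in WT cells. Their median log2 fold change was 0.71 in P248L and 0.72 in WT cells. Mitf and Tfeb, related activators of lysosomal genes, rose by 2.45 (adjusted p = 3.29e-09) and 2.25 (adjusted p = 9.08e-08) in P248L cells, and by 2.76 (adjusted p = 5.09e-10) and 2.79 (adjusted p = 5.34e-09) in WT cells. Myc fell by 1.97 in P248L (adjusted p = 7.04e-08) and by 3.22 in WT cells (adjusted p = 1.46e-10), and the responses differed by 1.25 (adjusted p = 0.00207). Maff, a small partner of NRF2 and BACH1, was at -0.03 in P248L cells at day 2 (adjusted p = 0.949) and rose by 1.37 in WT cells (adjusted p = 2.43e-05), with a difference of -1.40 (adjusted p = 0.00425).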

How the data were processed

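RNA from 1000000 cells per condition was sequenced. The submitters' processing notes name STAR and the mm10 build, without a STAR version or annotation in the sources used here. Each deposited file holds the authors' raw read counts for 23329 genes, for both strands together and singly. The strand carrying the reads was used, and the opposite one held 1.17 to 2.54% as many. Reads counted for no single gene (26.5 to 35.9% of a library, of which multimapping reads were 12.5 to 21.3% of the library) were kept out of library sizes.

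Low counts were removed with filterByExpr (minimum count 10), and libraries were scaled by TMM. edgeR 4.0.16 in R 4.3.3 was fitted to all 18 libraries with 1 mean per group (common coefficient of variation 0.17), giving 11 contrasts, of which 2 compare the responses of the lines. An SE is |log2 fold change| divided by the root of F. Members and lists were chosen with earlier results of these data known. List genes named in the text are among the 4 of smallest adjusted p at WT day 5 and the 2 of smallest adjusted p for the day 5 response difference, and the 3 closest patterns are given for 4 members; Hba-a1, Hba-a2, Ftmt and Fthl17 were named after their values were seen. A group at 0 reads is given a limit of 3 reads.

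The alternatives were DESeq2 1.42.0, limma-voom (limma 3.58.1), other scaling factors, other filters, counts of both strands, fits to the compared libraries alone, a replicate block, single libraries left out, and 2 outlying P248L libraries left out together. Same-numbered libraries deviated together with r over 0.1 in every pair for P248L untreated and day 2 (r = 0.46, 0.17 and 0.35 over genes) and for no other comparison. That pairing comes from these correlations, as no label explains the numbers, and a block within these 2 groups was added after seeing the data. The fits were tested on simulated counts. Transcripts came from GENCODE M21 (lengths for 87.0% of tested genes), and RefSeq gave gene positions (GRCm38.p6). Plots used Python 3.11.15 and matplotlib 3.10.9.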

Additional observations from a re-analysis of the deposited data

Results flagged for a closer look

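At day 2 the responses of the lines, each relative to its own untreated cells, differed by the test of the difference (edgeR) in 4 of the 10 genes, where 9.55% of all tested genes were called. The P248L minus WT difference on the log2 scale was -3.04 for Slc11a1, -2.06 for Hmox1, -1.51 for Fth1 and 0.74 for Steap3. At day 5 the same test separated the lines in 6 genes, all called down, where 12.2% of all tested genes were called down and 26.9% in either direction. The difference was -2.76 for Slc11a1, -2.61 for Fth1, -1.59 for Steap3, -1.0 for Ftl1, -0.96 for Tfrc and -0.70 for Slc11a2. The calls were lost in 8 of 29 alternatives for Ftl1, in 4 for Tfrc and in 2 for Slc11a2 at day 5, and in 15 of 29 for Steap3 at day 2, 13 of them with 1 library left out, so the day 2 call of Steap3 is not firm. Slc40a1 gives no interpretable difference, since untreated P248L cells had 0 reads.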

How the results depend on the processing

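No called result changed direction in any alternative run. Of the single-gene comparisons under alternatives, 3068 kept their side of the threshold, 62 lost the call and 67 gained it. For P248L day 2 against untreated, 4 members changed. The count was 7 with DESeq2, 2 with upper-quartile factors, 0 in edgeR with the compared libraries alone (1 at an unadjusted p under 0.05; 4 with limma-voom), and 2 to 7 with 1 library left out. Fits to the compared libraries alone also gave 1657 genes in place of 4775 there, 1205 in place of 2587 and 1 member in place of 2 for P248L against WT untreated, and 727 in place of 1140 for the day 2 response difference. With 1 library left out, P248L against WT untreated gave 1524 to 4535 genes and 2 to 5 members, and the day 2 response difference 788 to 1915 genes. Without scaling, 3 members in place of 6 differed in the day 5 responses. The cause of these shifts was not tested.

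Leaving out scaling moved the median of all genes by more than 0.1, to -0.49 at WT day 5, -0.25 at P248L day 5, -0.17 at WT day 2 and -0.12 at P248L day 2, and to 0.25 in the day 5 response difference, and by less elsewhere except P248L against WT at day 5 (0.14) and untreated (-0.10) and WT day 5 against day 2 (-0.25). The share of calls that were higher became 34.4% (with TMM 48.9%) at WT day 5, 36.0% (50.4%) at WT day 2, 40.5% (51.0%) for WT day 5 against day 2, 34.4% (46.3%) at P248L day 2, 35.8% (47.7%) for P248L against WT untreated and 72.7% (54.6%) for the day 5 response difference.

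With the replicate number as a block over all 18 libraries, Fth1 in P248L against WT untreated was gained (adjusted p = 0.0494), and no other member call changed. In P248L untreated and day 2 alone, the block gave 3 members and 3479 genes.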
